A study of Mus musculus with 8 samples.

Results

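Replication-dependent histone genes were described in leukemic mouse bone marrow. The 68 genes were all rows of the deposited expression table whose symbol begins with Hist1h, Hist2h, Hist3h or Hist4h, of 23997 rows in all. By the class named in the symbol, 6 encode the linker histone H1, 18 encode H2A, 19 encode H2B, 12 encode H3 and 13 encode H4. The Hist1 cluster on chromosome 13 holds 54 of them, the Hist2 cluster on chromosome 3 holds 10, the Hist3 cluster on chromosome 11 holds 3, and Hist4h4 lies alone on chromosome 6. Hist3h2bb-ps, counted with H2B, is named as a pseudogene.

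RNA was sequenced from the marrow of C57BL/6 mice that had developed leukemia, as 8 libraries in 3 groups. The AE+Meis2 group (n = 3) carried AML1-ETO, the fusion of the transcription factor RUNX1 with the corepressor RUNX1T1, together with the homeobox gene Meis2, and had a median latency of 171 days. The AE9a+Meis2 group (n = 3) carried the shortened splice form AML1-ETO9a with Meis2, with a median latency of 102 days. The AE9a group (n = 2) carried AML1-ETO9a alone, with a median latency of 138 days. In all groups the donor marrow came from mice given 5-fluorouracil (5FU) 4 days earlier, was cultured with IL3, IL6 and SCF, was transduced, and was transplanted 48 hours later into lethally irradiated recipients. No group lacked a transduced fusion gene, and whole marrow can also hold non-leukemic cells, so in these bulk samples fewer cells of a type and less RNA per cell cannot be told apart. The labels do not say that the libraries of a group came from separate mice or separate transductions, so p-values measure only the spread between these libraries.

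Histones package DNA into nucleosomes, each with a core of H2A, H2B, H3 and H4 and with H1 on the linker DNA. The clustered genes are transcribed chiefly in S phase, when new DNA has to be packaged, and their messenger RNAs usually end in a stem-loop bound by the protein SLBP in place of a poly(A) tail. Replacement histones such as those encoded by H3f3a, H3f3b, H2afz and H1f0 are made throughout the cell cycle from polyadenylated RNA. The libraries were made with a kit that selects polyadenylated RNA, so the values below describe the part of the histone messenger RNA that this selection retained.

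The stem-loop was read from the reference transcripts, since it is the feature that sets these messages apart from others. It was searched for as GGNNNTTNNNANNNCC with all 6 bases of the stem paired, on the sense strand, past the stop codon of 1 transcript per gene (GENCODE M21, mm10). A match was found in 45 of 68 members. The 8 forms found are printed as DNA, 5′ to 3′, with the stem in capitals and the loop in lower case.

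Stem-loop of 25 members of H1, H2A, H2B and H3: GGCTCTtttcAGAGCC
Stem-loop of 6 members including Hist1h2bb: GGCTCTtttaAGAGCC
Stem-loop of Hist2h2ac: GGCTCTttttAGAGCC
Stem-loop of Hist1h3g: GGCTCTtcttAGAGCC
Stem-loop of 7 members of H4: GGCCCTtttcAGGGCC
Stem-loop of Hist1h4i and Hist2h4: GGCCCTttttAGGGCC
Stem-loop of Hist1h4a: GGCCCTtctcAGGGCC
Stem-loop of Hist1h4b and Hist1h4j: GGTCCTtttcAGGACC

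The stems fell into 3 forms. The stem GGCTCT occurred in H1, H2A, H2B and H3 genes, while GGCCCT and GGTCCT occurred in H4 genes. Within the first 100 bases after the stop codon, 28 of 33 member transcripts long enough to be searched held the motif, against 8 of 40165 other protein-coding transcripts (0.0199%). Hist1h2bc and Hist2h2be, both H2B genes, had no match in the transcript used. No match says only that these letters were not in that annotated stretch.

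Many of the annotated transcripts run on past the stem-loop. The ends of 5 members are printed from the poly(A) signal, in capitals, to the last annotated base or for at most 30 bases, because 4 of these members are among the 6 highest and Hist4h4 is the single gene of its cluster.

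End of Hist1h1c: AATAAAaagcgtttagttttcattca
End of Hist2h2be: AATAAAgttaccgattagtttc
End of Hist3h2a: AATAAAataagagtacgtgtataacataag
End of Hist1h4i: ATTAAAagtattctatgctaa
End of Hist4h4: AATAAAtac

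In Hist1h1c the stem-loop began 25 bases after the stop codon, and the annotated transcript continued for 840 bases beyond it. The stretch beyond the stem-loop was 1643 bases in Hist3h2a, 330 bases in Hist1h4i and 2445 bases in Hist4h4. An AATAAA or ATTAAA lay within the last 40 bases of 17 members. The 25 members with at least 200 annotated bases past the stop codon had a median level of 0.828 FPKM (fragments per kilobase of transcript scaled to the mapped fragments of the library, averaged over 8 libraries). The 27 members with a shorter annotated end had a median of 0.317 FPKM, and the 15 whose annotation ended within 16 bases of the stop codon had a median of 0.270 FPKM. All 6 of the highest members had at least 200 such bases, with Hist1h2bg at exactly 200. Of these 6, Hist1h2bc and Hist1h2bg had no AATAAA or ATTAAA in their last 40 bases. The annotation behind the deposited values was not given in the sources used here. The models printed above may differ from it.

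**Figure D1:**
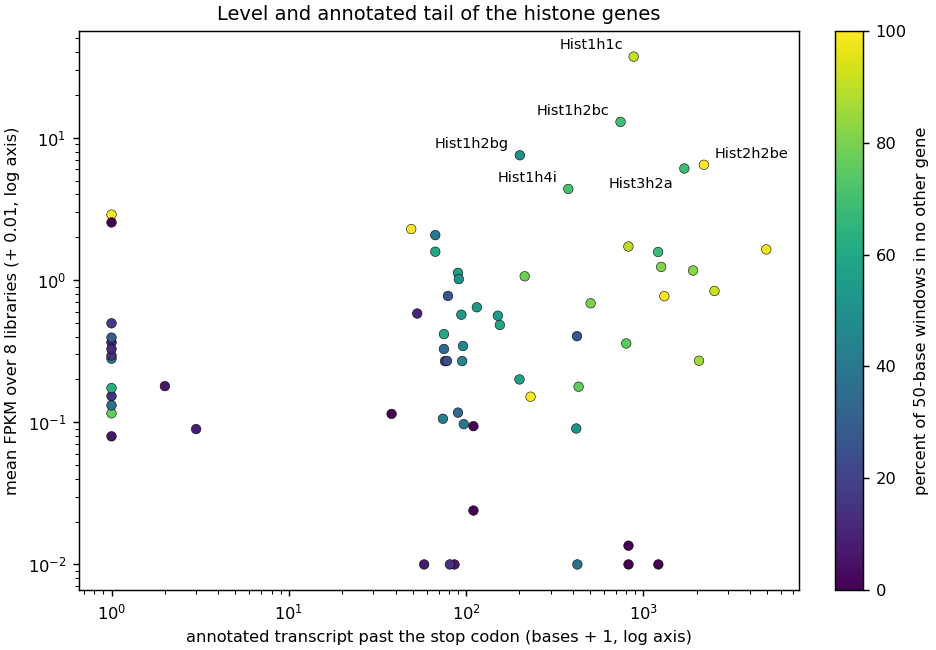
Mean FPKM over 8 libraries (plus 0.01, log axis) of each histone gene against the annotated transcript length past its stop codon (bases plus 1, log axis), coloured by the percent of its 50-base windows found in no other gene. The 6 named genes all have at least 200 annotated bases past the stop codon, and the genes at the bottom are listed at 0 in all libraries; the gene with no annotated stop codon is not drawn.

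The members also differ in how far they have near-identical copies. The share of 50-base windows of a member's transcript that occurred in no other annotated gene was at least 80% in 13 members, whose median level was 1.23 FPKM, and under 20% in 19 members, whose median was 0.0838 FPKM. The 36 members between these limits had a median of 0.366 FPKM. This split shares members with the split by annotated end. Hist1h1c, Hist2h2be and Hist4h4, for example, had at least 80% unique windows and at least 200 bases past the stop codon. Hist1h1a and Hist1h1b had only unique windows but no such end. The medians by annotated end and by unique windows therefore cannot be read apart. Hist1h2ao, Hist1h2ap, Hist1h2br, Hist1h4n, Hist2h3c1 and Hist2h3c2 were listed at 0 in every library, and none of them had more than 36.5% of its windows to itself. How fragments shared by copies were divided was not given in the sources used here. Levels of single members with few unique windows are therefore uncertain. Hist2h2bb, at a mean of 2.53 FPKM, had no unique window, and Hist1h2bg had 50.3%. Gene models of every H2A gene, Hist3h2a among them, overlap other genes in the annotation on the opposite strand. Models of Hist2h2bb, Hist1h1e, Hist1h2be, Hist1h4b, Hist2h3b and Hist2h3c1 also overlap other genes, on the same or the opposite strand. Reads of overlapping genes cannot be told apart where strand is not marked.

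Levels were low for most members. The median over the 68 members was 0.341 FPKM, 49 had a mean under 1 FPKM, and 36 reached 1 FPKM in no library. Hist1h1c alone made up 34.1% of the summed histone FPKM over the 8 libraries, and the 6 highest members made up 68.2%. The table holds no counts, and the depth of the libraries is unknown. The 3 H2B genes Hist1h2bf, Hist1h2bl and Hist1h2bn took values that were whole multiples of 1 step, within 0.1%, in each of the 6 libraries where at least 2 of them were above 0, and that step was 0.0898 to 0.237 FPKM. These genes were chosen with this pattern known, so it does not describe the other members. In AE+Meis2 replicate 1 all of them were 0.164 FPKM, so the multiples there follow from equal values. A step may stand for 1 fragment or for several.

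Facts about the libraries touch every comparison. Meis2 was 13.1, 38.2 and 81.5 FPKM in AE+Meis2, 621, 604 and 1277 FPKM in AE9a+Meis2, and 6.99 and 13.2 FPKM in AE9a. Runx1t1, whose 3′ part the full-length fusion carries, was 223 and 218 FPKM in AE+Meis2 replicates 2 and 3 but 21.6 FPKM in the library labelled AE+Meis2 replicate 1, within the 10.3 to 26.8 FPKM of the libraries with AML1-ETO9a. AE9a+Meis2 replicate 3 and AE9a replicate 1 had values above 0 in 84.2% and 72.1% of 1536 olfactory receptor, vomeronasal receptor, keratin-associated and beta-defensin genes, against 3.32% to 6.58% elsewhere. AE+Meis2 replicate 2 listed 40 histone genes at 0, the most of any library. Rows of short RNAs took 8.66% to 37.9% of a library's summed FPKM, lowest in AE9a+Meis2 replicate 2 and highest in AE+Meis2 replicate 2. The part of these features in the histone values was not tested, and counts without the libraries concerned are given beside the results.

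The linker histones held the highest member, Hist1h1c. Summed over its 6 genes, H1 was 41.2, 19.0 and 59.1 FPKM in AE+Meis2, 55.3, 65.9 and 71.6 FPKM in AE9a+Meis2, and 20.6 and 33.0 FPKM in AE9a. Every AE9a+Meis2 library was above both AE9a libraries, while AE+Meis2 spanned both other groups. Hist1h1c, a somatic linker histone (chr13:23738808-23740367, plus strand, 1 exon), was 34.2, 12.6 and 51.4 FPKM in AE+Meis2, 48.7, 52.4 and 54.6 FPKM in AE9a+Meis2, and 15.3 and 28.6 FPKM in AE9a. Its AE9a+Meis2 libraries lay close together, at 51.9 ± 2.95 FPKM (SD, n = 3), and its AE+Meis2 libraries lay far apart, at 32.8 ± 19.4 FPKM (SD, n = 3).

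The remaining H1 genes were far lower. Hist1h1a (chr13:23763666-23764406) was 1.35, 1.11 and 1.43 FPKM in AE+Meis2, 2.32, 3.85 and 5.74 FPKM in AE9a+Meis2, and 1.36 and 1.01 FPKM in AE9a. All AE9a+Meis2 libraries were above all 5 others. Hist1h1d (chr13:23553262-23560686) showed another pattern, with 1.57, 2.11 and 2.08 FPKM in AE+Meis2, 1.34, 2.44 and 2.31 FPKM in AE9a+Meis2, and 0.430 and 0.781 FPKM in AE9a. Both AE9a libraries were the lowest for this gene. Hist1h1b was between 1.65 and 5.49 FPKM, and Hist1h1e was between 0.952 and 3.11 FPKM. Hist1h1t, the testis form, reached 0.619 FPKM at most and was listed at 0 in 4 of 8 libraries.

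The H2A genes were low apart from Hist3h2a. Their sum was 7.34, 7.07 and 7.01 FPKM in AE+Meis2, 8.73, 11.5 and 10.7 FPKM in AE9a+Meis2, and 7.13 and 9.27 FPKM in AE9a. Hist3h2a (chr11:58954685-58956830, plus strand, 1 exon) was 5.98, 5.31 and 4.27 FPKM in AE+Meis2, 6.15, 8.25 and 7.50 FPKM in AE9a+Meis2, and 4.98 and 6.18 FPKM in AE9a. The AE9a+Meis2 libraries were above the AE+Meis2 libraries and overlapped the AE9a libraries by a narrow margin. The other 17 H2A genes stayed under 1 FPKM in every library.

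H2B held the most members that passed the filter on low values. The sum of its 19 genes was 48.9, 25.4 and 39.8 FPKM in AE+Meis2, 40.8, 54.2 and 48.9 FPKM in AE9a+Meis2, and 35.8 and 30.05 FPKM in AE9a. Hist1h2bc (chr13:23684199-23692908, plus strand, 2 exons) was 16.8, 11.1 and 14.4 FPKM in AE+Meis2, 12.8, 15.0 and 17.7 FPKM in AE9a+Meis2, and 7.94 and 7.69 FPKM in AE9a. All 6 libraries labelled with Meis2 were above both AE9a libraries for this gene, among them the library labelled AE+Meis2 replicate 1, whose Meis2 level was that of an AE9a library.

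Hist1h2bg (chr13:23571396-23572013) was 14.2, 1.79 and 8.87 FPKM in AE+Meis2, 9.52, 11.04 and 5.90 FPKM in AE9a+Meis2, and 3.96 and 5.00 FPKM in AE9a. Its lowest and highest values were both in AE+Meis2. Hist2h2be (chr3:96221119-96223738) had its highest value in AE9a, with 7.22, 9.02 and 3.01 FPKM in AE+Meis2, 5.05, 7.21 and 3.21 FPKM in AE9a+Meis2, and 10.7 and 6.27 FPKM in AE9a. Its 3 groups overlapped. Hist2h2bb was 1.46, 0.980 and 1.81 FPKM in AE+Meis2, 1.83, 4.58 and 5.23 FPKM in AE9a+Meis2, and 2.81 and 1.56 FPKM in AE9a. The gap between AE+Meis2 and AE9a+Meis2 was 1.81 against 1.83 FPKM for that gene.

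The H3 genes had the lowest class sum, although the median gene was lower in H2A (0.132 FPKM) than in H3 (0.211 FPKM). Summed over 12 genes, H3 was 2.22, 1.30 and 2.15 FPKM in AE+Meis2, 3.75, 5.53 and 4.00 FPKM in AE9a+Meis2, and 4.04 and 3.99 FPKM in AE9a. Every AE+Meis2 library was below the 5 others. Hist1h3a (chr13:23761853-23762386, minus strand), the only H3 gene that passed the filter, was 0.777, 0.318 and 0.588 FPKM in AE+Meis2, 1.07, 1.64 and 0.898 FPKM in AE9a+Meis2, and 1.56 and 1.19 FPKM in AE9a. Its AE+Meis2 values were again the lowest 3 of 8. Of the 12 H3 genes, 5, 8 and 4 were listed at 0 in the AE+Meis2 libraries, 4, 2 and 3 in the AE9a+Meis2 libraries, and 7 and 5 in the AE9a libraries.

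The H4 sum over 13 genes was 7.02, 4.96 and 10.96 FPKM in AE+Meis2, 11.7, 16.1 and 19.3 FPKM in AE9a+Meis2, and 10.8 and 8.48 FPKM in AE9a. The AE9a+Meis2 libraries were above all others. Hist1h4i, the highest H4 gene, lies outside the rule for naming genes and was chosen after its values were seen. It was 2.57, 3.15 and 4.66 FPKM in AE+Meis2, 4.21, 6.89 and 6.14 FPKM in AE9a+Meis2, and 3.31 and 3.97 FPKM in AE9a. Hist1h4d (chr13:23581598-23582735) was 1.29, 1.05 and 0.974 FPKM in AE+Meis2, 1.99, 2.32 and 2.97 FPKM in AE9a+Meis2, and 1.29 and 1.79 FPKM in AE9a. In that gene the AE9a+Meis2 libraries were again the highest 3.

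**Figure D2:**
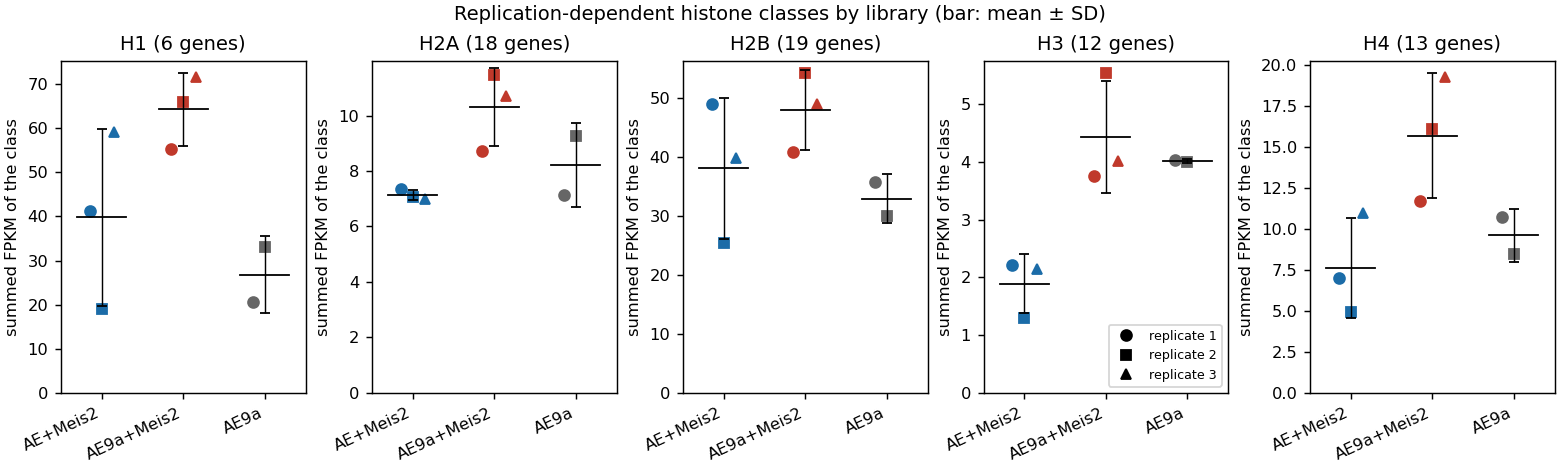
Summed FPKM of the genes of each histone class in each library, in AE+Meis2, AE9a+Meis2 and AE9a; horizontal lines are means, vertical bars are SDs, and the marker shape gives the replicate number. AE9a+Meis2 lies above AE9a without overlap in H1, H2B and H4, and AE+Meis2 lies below both other groups in H3.

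**Figure D3:**
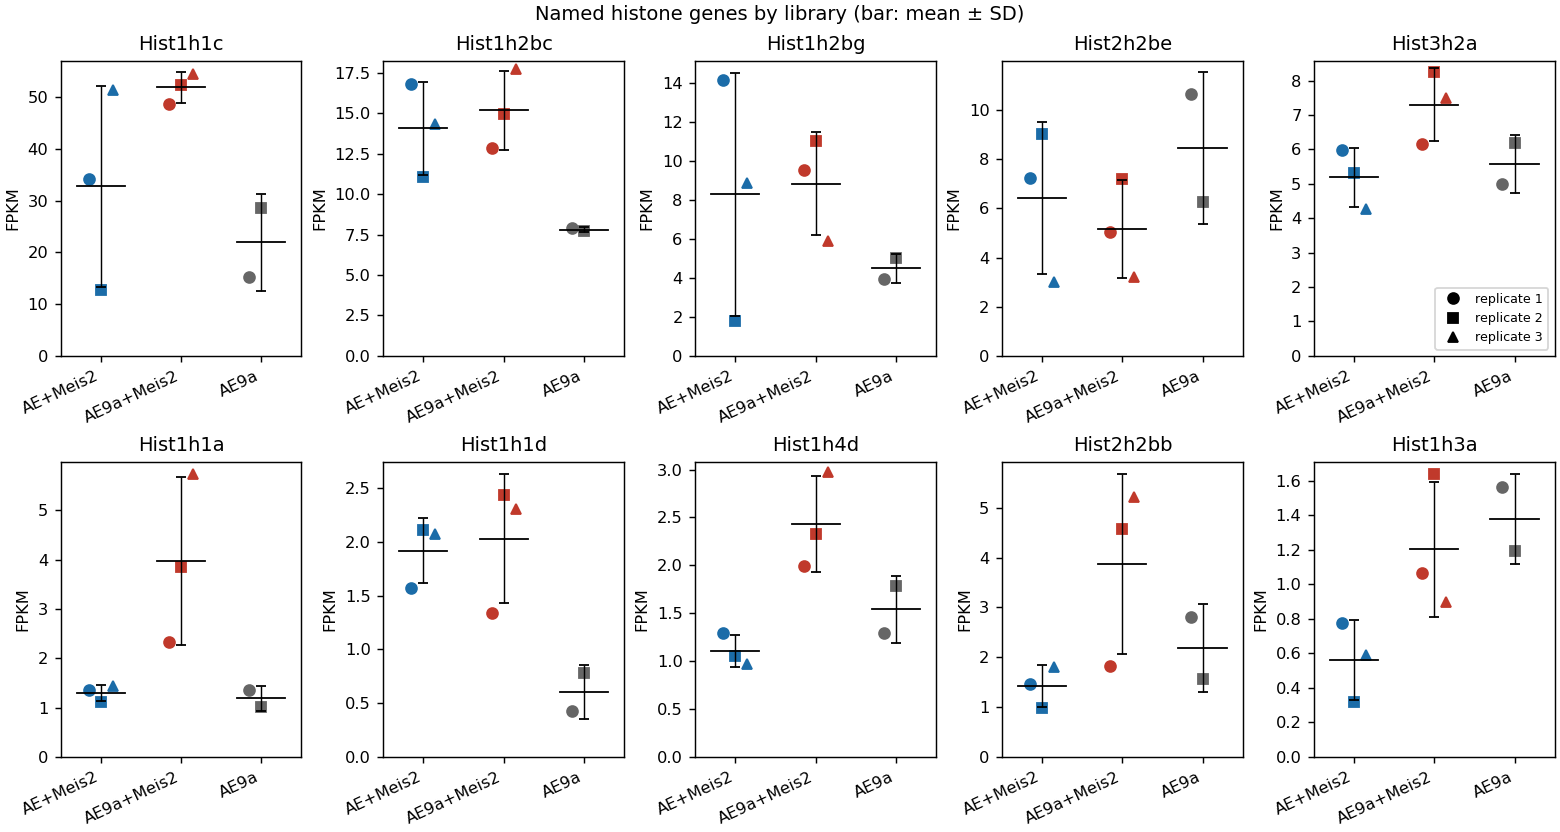
FPKM of 10 named histone genes in each library, with the mean (horizontal line) and SD (vertical bar) of each group and the marker shape giving the replicate number. Hist1h1a and Hist1h4d are highest in the 3 AE9a+Meis2 libraries, Hist1h2bc and Hist1h1d are lowest in the 2 AE9a libraries, and Hist1h3a is lowest in the 3 AE+Meis2 libraries.

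The first comparison asks what goes with Meis2 when AML1-ETO9a is present in both groups. Summed histone FPKM was 120, 153 and 154 in AE9a+Meis2, against 78.4 and 84.8 in AE9a, so the groups did not overlap. H1 averaged 64.3 ± 8.23 FPKM in AE9a+Meis2 (SD, n = 3) and 26.8 ± 8.75 FPKM in AE9a (SD, n = 2), H2B averaged 48.0 ± 6.78 FPKM in AE9a+Meis2 and 32.9 ± 4.07 FPKM in AE9a, and H4 averaged 15.7 ± 3.80 FPKM in AE9a+Meis2 and 9.62 ± 1.61 FPKM in AE9a. H2A, at 10.3 ± 1.41 FPKM in AE9a+Meis2 and 8.20 ± 1.51 FPKM in AE9a, and H3, at 4.43 ± 0.963 FPKM in AE9a+Meis2 and 4.02 ± 0.0311 FPKM in AE9a, overlapped between the groups.

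The difference per gene was taken on the log2(FPKM + 1) scale, which understates differences of low genes, and tested with limma over the 12565 rows with at least 1 FPKM in at least 2 libraries. That filter kept 25 of 68 members, and since a member may pass through the group where it is high, counts over these 25 describe them and support nothing. No member passed an adjusted p of 0.05 (0 of 25), while 0.0478% of all rows did. At an unadjusted p under 0.05 stood 3 members (Hist1h2bc, Hist1h1a and Hist1h1d), a share of 12%, and 3.06% of all rows. In AE9a+Meis2, 21 of 25 members had the higher mean, against 49.8% of all rows, and the members' median difference was 0.36 on the log2 scale, against -0.0011 for all rows. The groups did not overlap in 9 members that were higher in AE9a+Meis2, where 13.1% of all rows did the same, and in 0 that were lower, where 10.7% of all rows did.

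Hist1h1c had the largest difference among the members named, at 1.27 ± 0.54 (log2, SE), and Hist1h1a followed at 1.13 ± 0.33. For Hist1h1d the difference was 0.90 ± 0.28, for Hist1h2bc 0.87 ± 0.24 and for Hist1h2bg 0.81 ± 0.67. Hist3h2a stood at 0.33 ± 0.24, and Hist2h2be at -0.63 ± 0.48. The limma adjusted p of each was 1.00. Hist2h2be, Hist1h2bh, Hist1h3a and Hist1h4a were the 4 tested members with a lower mean in AE9a+Meis2.

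Without AE9a replicate 1, 21 of 25 members had a higher mean in AE9a+Meis2, with 15 members higher without overlap in place of 9. Any setting without AE9a replicate 1 leaves AE9a replicate 2 as the only library of its group. A smaller group overlaps less often, and the share of all rows higher without overlap was then 23.1% in place of 13.1%, with 31.4% lower. Without AE9a+Meis2 replicate 3 the count was 22 of 25. Without AE9a+Meis2 replicate 2, 2 members (8%) were lower without overlap in place of 0, where 16.2% of all rows were. With AE9a replicate 1 and AE9a+Meis2 replicate 3 both left out, 22 of 25 had the higher mean, the members higher without overlap were 17 in place of 9, where 36.1% of all rows were higher and 38.6% lower, and the ratio of summed H1 was 1.84 in place of 2.40 (AE9a+Meis2 over AE9a). Of the 19 members with a mean of at least 1 FPKM, 16 had the higher mean in AE9a+Meis2.

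Immediate-early and stress genes moved with this comparison. The sum of 12 such genes, among them Fos, Jun and Atf3, was 1322 to 2192 FPKM in AE9a+Meis2, against 148 to 454 FPKM in AE9a. Of the 10 tested, 9 were higher in AE9a+Meis2 without overlap, where 13.1% of all rows were. None passed the limma threshold, and 6 of 10 stood at an unadjusted limma p under 0.05, against 3.06% of all rows. Fos was 691, 448 and 739 FPKM in AE9a+Meis2, against 25.9 and 92.7 FPKM in AE9a. The sum of 8 stroma and endothelium markers ran the opposite way, at 26.9 to 51.0 FPKM in AE9a+Meis2 and 97.3 to 116 FPKM in AE9a. Fabp4 alone gave 25.7, 14.0 and 9.32 FPKM in AE9a+Meis2, and 92.5 and 56.2 FPKM in AE9a. Summed without Fabp4, the markers overlapped between the groups. Of 5 tested, 4 had a lower mean in AE9a+Meis2 and 1, Pecam1, a higher mean. Fabp4, Cxcl12 and Col1a2, 3 of the 5, were lower in AE9a+Meis2 without overlap, where 10.7% of all rows were. The part of either list in the histone values was not tested.

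The second comparison sets the full-length against the shortened fusion, both labelled as carrying Meis2. Meis2 itself was 13.1 to 81.5 FPKM in AE+Meis2 and 604 to 1277 FPKM in AE9a+Meis2, so the fusion and the level of Meis2 cannot be told apart here. It shares the AE9a+Meis2 libraries with the first, so the members' differences in the 2 comparisons are not independent. Summed histone FPKM was 107, 57.7 and 119 in AE+Meis2, against 120, 153 and 154 in AE9a+Meis2. H3 averaged 1.89 ± 0.508 FPKM in AE+Meis2 and 4.43 ± 0.963 FPKM in AE9a+Meis2 (SD, n = 3 each), H4 averaged 7.64 ± 3.05 FPKM in AE+Meis2 and 15.7 ± 3.80 FPKM in AE9a+Meis2, and H2A averaged 7.14 ± 0.174 FPKM in AE+Meis2 and 10.3 ± 1.41 FPKM in AE9a+Meis2. In these 3 class sums no AE+Meis2 library reached the lowest AE9a+Meis2 library. For H2A this rested on Hist3h2a, and the remaining H2A genes overlapped. Hist3h2a gave 4.27 of 7.01 FPKM in AE+Meis2 replicate 3 and 6.15 of 8.73 FPKM in AE9a+Meis2 replicate 1. H1, at 39.8 ± 20.1 FPKM in AE+Meis2 and 64.3 ± 8.23 FPKM in AE9a+Meis2, overlapped, as did H2B, at 38.0 ± 11.9 FPKM in AE+Meis2 and 48.0 ± 6.78 FPKM in AE9a+Meis2.

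Again 0 of 25 members passed the limma threshold, against 0.0398% of all rows. At an unadjusted p under 0.05 stood 4 members (Hist1h1a, Hist1h4d, Hist2h2bb and Hist1h2bj), a share of 16%, and 7.15% of all rows. A higher mean in AE+Meis2 was found in 1 of 25 members, Hist2h2be, where 54.9% of all rows had one, and the members' median was -0.42 on the log2 scale, against 0.04 for all rows. The groups did not overlap in 8 members that were lower in AE+Meis2, against 6.49% of all rows, and in 0 that were higher, against 7% of all rows. Those 8 were Hist1h1a, Hist3h2a, Hist1h2bj, Hist2h2bb, Hist1h3a, Hist1h4c, Hist1h4d and Hist1h4h.

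Hist1h1a differed by -1.06 ± 0.29 (log2, SE; limma adjusted p = 0.538), Hist2h2bb by -0.95 ± 0.36 (adjusted p = 0.674) and Hist1h4d by -0.70 ± 0.22 (adjusted p = 0.613). Hist1h1c stood at -0.85 ± 0.49, Hist3h2a at -0.42 ± 0.21, Hist1h2bg at -0.35 ± 0.60 and Hist1h2bc at -0.11 ± 0.22. Hist2h2be stood at 0.22 ± 0.43.

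These counts moved with 1 library. Without AE+Meis2 replicate 2, which was chosen for this after its histone values were seen, 19 of 25 members had a lower mean in AE+Meis2, and with it the count was 24 of 25. Once the library labelled AE+Meis2 replicate 1 was left out the count was 23 of 25, and H2B then no longer overlapped, with AE+Meis2 lower, where 11.9% of all rows were lower without overlap. The count of members lower in AE+Meis2 was 22 of 25 without AE9a+Meis2 replicate 3 and 23 of 25 without AE9a+Meis2 replicate 2. Leaving out AE+Meis2 replicate 2 moved Hist1h2bc to 0.04, Hist1h2bg to 0.36 and Hist2h2be to -0.05. The sums of H2A, H3 and H4 remained without overlap in each of these cases. In AE+Meis2 replicate 2, the tested members Hist1h2bb, Hist1h2bh, Hist1h2bj, Hist1h2bk, Hist1h4c, Hist1h4f and Hist1h4h were listed at 0. Itga2b, a megakaryocyte marker, was 255 FPKM in that library, against 5.66 to 53.5 FPKM in the other 7 libraries. Of the same list, Pf4, Gp9, Itgb3, Treml1 and Vwf were also highest in that library. Gp1bb, at 0.0747 FPKM there, and Ppbp, at 1.41 FPKM there, were not. The sum of 8 megakaryocyte and platelet markers was 20.9 to 385 FPKM in AE+Meis2 and 18.6 to 35.3 FPKM in AE9a+Meis2. The 8 stroma and endothelium markers summed to 58.7 to 99.0 FPKM in AE+Meis2 and 26.9 to 51.0 FPKM in AE9a+Meis2. Immediate-early and stress genes summed to 165 to 3392 FPKM in AE+Meis2 and 1322 to 2192 FPKM in AE9a+Meis2, with 8 of 10 tested lower in AE+Meis2. The part of these genes and cells in the histone values was not tested.

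AE+Meis2 against AE9a differs in both the fusion and Meis2, whose effects cannot be told apart. It shares libraries with each of the others. Summed histone FPKM was 107, 57.7 and 119 in AE+Meis2, against 78.4 and 84.8 in AE9a. H3 was the only class without overlap, at 1.89 ± 0.508 FPKM in AE+Meis2 (SD, n = 3) and 4.02 ± 0.0311 FPKM in AE9a (SD, n = 2).

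Here too 0 of 25 members passed the limma threshold, against 0.0318% of all rows, and 2 (Hist1h2bc and Hist1h1d) stood at an unadjusted p under 0.05, a share of 8%, against 5.98% of all rows. The mean was higher in AE+Meis2 for 11 of 25 members, against 55.9% of all rows, and the members' median was -0.08 on the log2 scale. That split depended on the scaling: 15 of 25 members were higher in AE+Meis2 after quantile scaling and 9 of 25 after median-of-ratios scaling, which moved the median of all rows from 0.06 to -0.07. The groups did not overlap in 2 members that were higher in AE+Meis2, against 9.96% of all rows, and in 2 that were lower, against 8.66% of all rows.

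Hist1h1d differed by 0.86 ± 0.28 (log2, SE) and Hist1h2bc by 0.76 ± 0.24, both with a limma adjusted p of 0.693. Hist1h3a stood at -0.61 ± 0.27 (adjusted p = 0.848). Hist1h2bg stood at 0.45 ± 0.67, Hist1h1c at 0.42 ± 0.54, Hist3h2a at -0.09 ± 0.24 and Hist2h2be at -0.41 ± 0.48. Without AE+Meis2 replicate 2, summed H1 was 50.2 FPKM in AE+Meis2 and 26.8 FPKM in AE9a, and H1 and H2B then no longer overlapped, with AE+Meis2 higher. In that case 13 of 25 members had the higher mean in AE+Meis2, 8 of them (32% of the 25) without overlap, where 19.8% of all rows were. Without AE9a replicate 1, which leaves AE9a replicate 2 as the only library of its group, the count was 13 of 25. Of these, 5 (20% of the 25) were higher without overlap, where 16.9% of all rows were. H2A then lay lower in AE+Meis2 without overlap, as it did when the library labelled AE+Meis2 replicate 1 was left out, where 10 of 25 members had the higher mean in AE+Meis2.

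**Figure D4:**
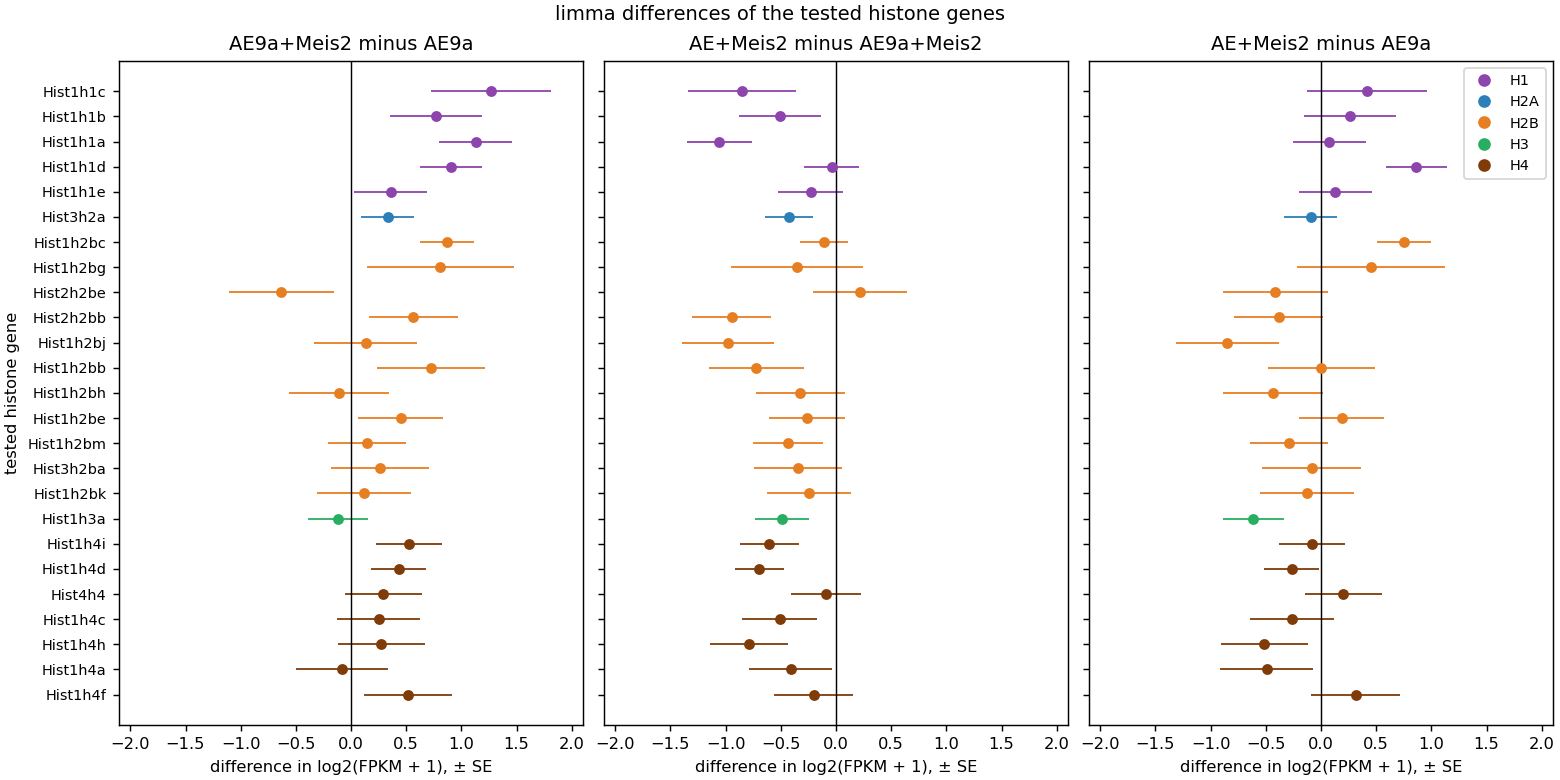
Difference in log2(FPKM + 1) with its SE for the 25 tested histone genes, coloured by class, in AE9a+Meis2 minus AE9a, AE+Meis2 minus AE9a+Meis2 and AE+Meis2 minus AE9a. Of 25 points, 21 lie above 0 in the first panel, 1 in the second and 11 in the third, and none passed the limma threshold.

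In these libraries of polyadenylated RNA the replacement histones were far higher than the clustered genes of their class. The clustered messages usually lack a poly(A) tail, so the ratios below describe the retained RNA and not all histone messages. Summed H3 genes were 0.108% to 0.480% of H3f3a plus H3f3b, which together reached 850 to 1565 FPKM. Summed H2A genes were 0.627% to 1.17% of 6 replacement H2A genes led by H2afz. H1 stood apart, since its clustered genes were 21.1% to 123% of H1f0 plus H1fx. H1f0, the replacement linker histone of non-dividing cells, was 87.9, 15.3 and 96.8 FPKM in AE+Meis2, 73.7, 138 and 134 FPKM in AE9a+Meis2, and 97.7 and 101 FPKM in AE9a. Its lowest value fell in AE+Meis2 replicate 2, the library that was also lowest for clustered H1.

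Among the replacement genes, H3f3b was 511, 501 and 596 FPKM in AE9a+Meis2, against 305 and 441 FPKM in AE9a. The log2 difference of H3f3b was 0.54 ± 0.23, with a limma adjusted p of 1.00. In the H2A list, 5 of 6 tested genes had a higher mean in AE9a+Meis2 than in AE9a and 2 of 6 had a higher mean in AE+Meis2 than in AE9a+Meis2. None of the replacement genes passed the limma threshold in any comparison. In each comparison against AE9a, 1 of 10 tested, H3f3b, stood at an unadjusted limma p under 0.05. The share of all rows was 3.06% for AE9a+Meis2 and 5.98% for AE+Meis2.

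**Figure D5:**
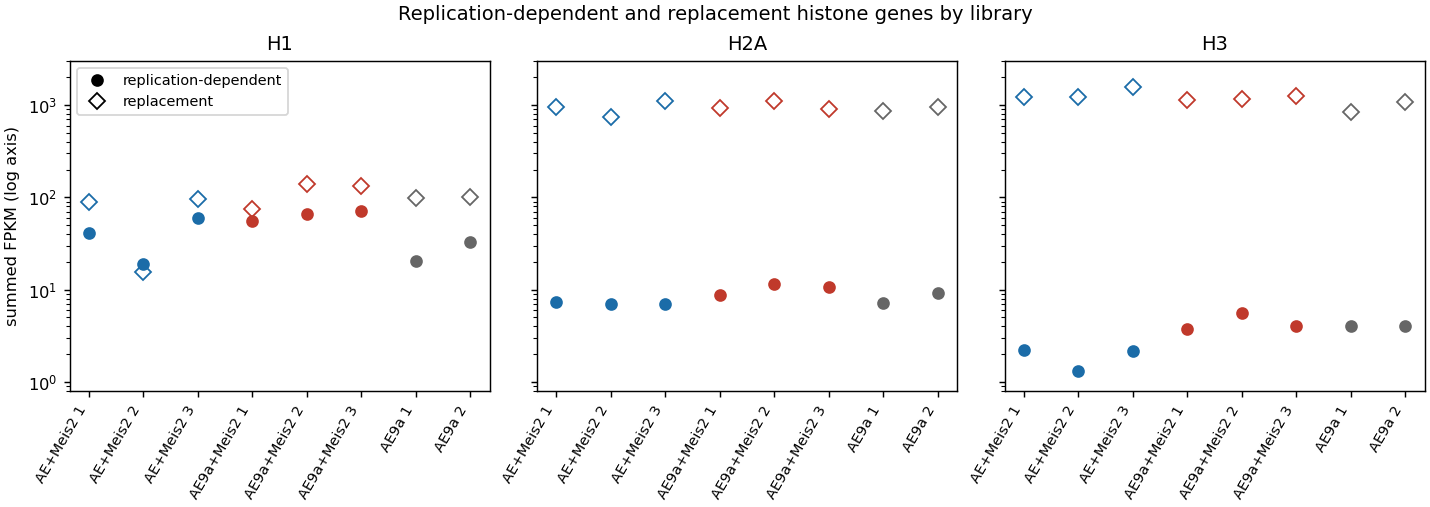
Summed FPKM (log axis) of the clustered genes (filled circles) and of the replacement genes (open diamonds) of H1, H2A and H3 in each library of AE+Meis2, AE9a+Meis2 and AE9a. Replacement genes are higher in every library for H2A and H3, and in 7 of 8 libraries for H1. The RNA was selected for poly(A) tails, which the clustered messages usually lack.

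Genes around histone supply were read in the same fit. Of 25 S-phase and replication genes, 6 had a higher mean in AE9a+Meis2 than in AE9a, 18 of 25 in AE+Meis2 than in AE9a+Meis2, and 14 of 25 in AE+Meis2 than in AE9a. Their median differences were -0.09, 0.12 and 0.06 on the log2 scale, against 0.36, -0.42 and -0.08 for the histone members. None passed the limma threshold, and 0 of 25 stood at an unadjusted limma p under 0.05, against 3.06%, 7.15% and 5.98% of all rows. Pcna, the sliding clamp of DNA polymerase, was 159, 238 and 215 FPKM in AE9a+Meis2, against 127 and 252 FPKM in AE9a, so the groups overlapped.

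A list of 27 tested genes covered the processing, export and decay of histone messages, with factors of polyadenylated messages such as Cstf3 among them. Of these 27, 13 had a higher mean in AE9a+Meis2 than in AE9a. A higher mean in AE+Meis2 was found in 19 against AE9a+Meis2 and in 17 against AE9a. None of these passed the limma threshold. At an unadjusted limma p under 0.05 stood 0, 1 and 0 of 27 in the 3 comparisons, against 3.06%, 7.15% and 5.98% of all rows. Slbp, which binds the stem-loop, was 50.6, 58.3 and 62.2 FPKM in AE+Meis2, 39.9, 54.4 and 47.4 FPKM in AE9a+Meis2, and 32.4 and 59.99 FPKM in AE9a. Cstf3, a cleavage factor of polyadenylated messages, was 21.4, 22.9 and 19.9 FPKM in AE+Meis2, against 16.2, 16.8 and 13.6 FPKM in AE9a+Meis2, a log2 difference of 0.44 ± 0.17 (limma adjusted p = 0.677).

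Of 16 histone chaperones, 5 had a higher mean in AE9a+Meis2 than in AE9a, 13 in AE+Meis2 than in AE9a+Meis2 and 14 in AE+Meis2 than in AE9a. No chaperone passed the limma threshold. At an unadjusted limma p under 0.05 stood 1, 0 and 1 of 16, against 3.06%, 7.15% and 5.98% of all rows. Daxx, a chaperone of replacement H3, was 36.4, 26.0 and 23.7 FPKM in AE+Meis2, 21.7, 22.7 and 27.7 FPKM in AE9a+Meis2, and 16.3 and 14.2 FPKM in AE9a. The groups labelled with Meis2 were both above AE9a for Daxx, and its log2 differences from AE9a were 0.85 ± 0.24 in AE+Meis2 (limma adjusted p = 0.596) and 0.62 ± 0.24 in AE9a+Meis2 (limma adjusted p = 1.00).

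RNAs without a poly(A) tail were read as a measure of carry-over. Rmrp was 1.18, 0.953 and 2.83 FPKM in AE+Meis2, 1.05, 0.561 and 4.05 FPKM in AE9a+Meis2, and 21.2 and 0.642 FPKM in AE9a. Rpph1 was 0.273, 3.33 and 2.46 FPKM in AE+Meis2, 0.148, 1.17 and 7.52 FPKM in AE9a+Meis2, and 6.55 and 0.450 FPKM in AE9a. Rmrp and Rpph1 were highest in the libraries with values in normally silent genes. Terc, also on this list, was 0.0679 FPKM in AE9a+Meis2 replicate 2 and 0.217 FPKM in AE9a+Meis2 replicate 3. It was listed at 0 in all other libraries, AE9a replicate 1 among them. The part of these RNAs in the histone values was not tested.

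Markers of other marrow cells gave no limma call in any comparison. Of 10 neutrophil markers, 8 had a higher mean in AE9a+Meis2 than in AE9a, 8 in AE+Meis2 than in AE9a+Meis2 and 10 in AE+Meis2 than in AE9a, with sums of 782 to 50516 FPKM in AE+Meis2, 2794 to 15700 FPKM in AE9a+Meis2 and 2349 to 7239 FPKM in AE9a. The erythroid sum of 9 genes was 192 to 2314 FPKM in AE+Meis2, 517 to 1452 FPKM in AE9a+Meis2 and 315 to 1378 FPKM in AE9a. The 8 B-cell markers summed to 37.0 to 72.0 FPKM in AE+Meis2, 29.2 to 112 FPKM in AE9a+Meis2 and 60.2 to 67.2 FPKM in AE9a. The 7 T and NK markers summed to 49.8 to 120 FPKM in AE+Meis2, 11.99 to 67.0 FPKM in AE9a+Meis2 and 23.4 to 48.7 FPKM in AE9a. The 8 blast and progenitor markers, Kit and Gata2 among them, were present in every library and summed to 491 to 1148 FPKM in AE+Meis2, 477 to 892 FPKM in AE9a+Meis2 and 428 to 530 FPKM in AE9a.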

How the data were processed

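The authors deposited 1 table of FPKM values per gene and library. The build mm10 and the tools Cuffdiff, Cufflinks and TopHat are named per the submitters' processing notes. Versions, settings and annotation were not given in the sources used here. The table holds no counts, so the depth is unknown. Per the labels' protocols, RNA was extracted with TRIzol and libraries were made with the Illumina TruSeq RNA kit. Values were taken to log2(FPKM + 1), and rows with at least 1 FPKM in at least 2 libraries were fitted over all 8 libraries with limma 3.58.1 (R 4.3.3), 1 coefficient per group and an intensity trend, with Benjamini-Hochberg adjustment over 12565 rows and a threshold of 0.05. Class sums used all members without a filter. Named genes were those with a mean of at least 5 FPKM and the 3 with the smallest p in each comparison, besides any with a mean of at least 1 FPKM listed at 0 across exactly 1 group, of which there were none, and from each list up to 4 with the smallest p. Hist1h4i, the members named for lack of overlap, for zeros or for minor roles, and Slbp, Pcna, Fos, H1f0, Rmrp, Rpph1 and Terc were named outside this rule after their values were seen. The same holds for Itga2b and the other megakaryocyte and platelet markers. Alternatives were another pseudocount, filter, scaling, class summary and set of libraries. Members, lists and tests were chosen with earlier results of these data known. On simulated data of 12565 rows, genes shifted by 2 on the log2 scale were recovered in 49.3% of cases for AE9a+Meis2 against AE9a and 65.7% for AE+Meis2 against either other group, and genes shifted by 1 in 0% for AE9a+Meis2 against AE9a, and for AE+Meis2 in 10.4% against AE9a+Meis2 and 14.9% against AE9a. The shifted genes were drawn from rows with a mean log2(FPKM + 1) above 1, so these rates do not cover members below that level. No 2 libraries held identical values, and log2 values within a group correlated at 0.752 to 0.921 across genes. Tables and figures were made in Python 3.11.15.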

Additional observations from a re-analysis of the deposited data

How the results depend on the processing

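No histone gene passed the limma threshold under any alternative. The members' median kept its sign in all 18 settings for AE9a+Meis2 against AE9a (0.20 to 0.62 on the log2 scale) and in all 19 for AE+Meis2 against AE9a+Meis2 (-0.88 to -0.20); for AE+Meis2 against AE9a it was above 0 in 3 of 19. These are called the first, the second and the third here. Leaving out 1 library gave medians of 0.33 to 0.54 in the first comparison. With a pseudocount of 0.1 the medians were 0.62, -0.88 and -0.41 in the 3 comparisons, and the class levels (mean log2 over the members) differed in the first by 1.16 (H1), 0.38 (H2A), 0.61 (H2B), 0.40 (H3) and 0.73 (H4), in the second by -0.85, -0.49, -0.93, -0.76 and -1.09, and in the third by -0.11 (H2A), -0.33 (H2B), -0.36 (H3) and -0.36 (H4). With log2(FPKM + 1), the main setting, these class levels differed in the first by 0.77 (H1), 0.058 (H2A), 0.28 (H2B), 0.061 (H3) and 0.29 (H4). In the second they differed by -0.51, -0.099, -0.36, -0.21 and -0.41, and in the third by 0.27, -0.042, -0.084, -0.15 and -0.13. From class sums in place of mean log2 values the first comparison gave 1.26 (H1), 0.30 (H2A), 0.52 (H2B) and 0.64 (H4), the second -0.81 (H1), -0.47 (H2A), -0.91 (H3) and -0.98 (H4), and the third -0.17 (H2A), 0.16 (H2B), -0.81 (H3) and -0.35 (H4). Quantile scaling gave -0.043 (H2A) and -0.12 (H3) in the second and 0.044 (H2A) and -0.037 (H3) in the third. The H2A difference of the first comparison was 0.0083 without both libraries that have values in silent genes, and 0.014 to 0.10 with 1 library left out.

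Calls over all rows numbered 6, 5 and 4. They were 2 to 9, 6 to 23 and 1 to 10 with 1 library left out, and 0, 0 and 0 without short RNAs and rows at 0 across a group. The first comparison gave 3 calls without both libraries that have values in silent genes. The third gave 1 call with no filter, 1 with a filter on the mean, and 2 when fitted on its own libraries. Replicate numbers are shared between groups, but same-numbered libraries deviated together at correlations of only -0.03 to 0.13, so the numbers were not taken to pair them; with a replicate block, AE9a+Meis2 against AE9a gave 2 calls and AE+Meis2 against AE9a gave 0. Fitted on the libraries of both groups without AE+Meis2 replicate 2, an alternative chosen after seeing the data, the second comparison gave 9 calls and the third 10, with Hist1h2bc at 0.042, Hist1h2bg at 0.36 and Hist2h2be at -0.048 in the second. Named members changed sign where 1 library was left out, between -0.24 and 0.042 for Hist1h2bc, -0.86 and 0.36 for Hist1h2bg, and -0.048 and 0.61 for Hist2h2be in the second comparison, and between -0.012 and 0.97 for Hist1h1c, -0.056 and 1.17 for Hist1h2bg, and -0.22 and 0.039 for Hist3h2a in the third. Without both libraries that have values in silent genes, Hist1h2bc was 0.00039 and Hist2h2be -0.028 in the second, and Hist1h1c -0.012 in the third. The cause of these shifts was not tested. The depth is unknown and most members are low, so a value of 0 does not show absence.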
